A study of Mus musculus with 19 samples.

Results

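The 8 genes described here encode the PPAR nuclear receptors (Ppara, Ppard and Pparg), the C/EBP transcription factors (Cebpa, Cebpb and Cebpd) and the retinoid X receptors Rxra and Rxrg. They were chosen by gene symbol and not by a rule on measured values, but with earlier results of these data known. All 8 were listed in each of the 3 expression tables, among 55573 genes in the table of 7 WT tissues, 55487 genes in the brown adipose tissue (BAT) table and 13756 genes in the inguinal white adipose tissue (iWAT) table. PPARs bind DNA as pairs with an RXR and are switched on by fatty acids and their derivatives. In fat cell development, C/EBPβ and C/EBPδ act early and turn on PPARγ and C/EBPα, which then sustain each other and the genes of the mature adipocyte. PPARα and PPARδ are best known for driving the genes of fatty acid oxidation.

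RNA-Seq was performed on 19 libraries of male mice to examine Musclin (gene Ostn), a peptide secreted by skeletal muscle, and its influence on fat. The tissue survey held 1 library each of white and brown adipose tissue, liver, small intestine, brain, heart and tibialis anterior muscle from C57BL/6J WT mice, whose age and white adipose depot are not given in the sources used here. The genotype comparison held WT and MCK-Musclin mice, 3 libraries of each in iWAT and 3 of each in BAT, all kept at 8 °C for 1 week on chow diet. MCK-Musclin mice carry an additional Musclin coding sequence behind the muscle creatine kinase (MCK) promoter, which is active in skeletal and heart muscle, on a C57BL/6J background, and the founder line used is not given in the sources used here. The cold-exposed mice were 5 months old, and no cold library had a partner at room temperature. The study states that its RNA-Seq samples within a genotype or treatment came from independent animals. Whether the iWAT and BAT libraries came from the same mice is not stated. The p-values set a difference against the spread between these libraries.

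Ostn was listed at 0 in the 3 WT BAT libraries and at 37.9, 31.6 and 30.3 FPKM (reads scaled to gene length and library size) in MCK-Musclin BAT. It was the 1 gene of BAT with an adjusted p under 0.05 in limma. In iWAT it was at 0, 0 and 0.225 FPKM in WT and at 0, 5.17 and 4.21 FPKM in MCK-Musclin libraries 1, 2 and 3. The library labelled MCK-Musclin 1 in iWAT therefore had no reading of the transgene, and its 7 skeletal muscle markers summed to 6.04 FPKM, against 80.3 and 89.7 FPKM in MCK-Musclin 2 and 3. Results in iWAT are given with and without it where they turn on it. The 7 tissues carried their own defining markers at the highest level. In iWAT, muscle markers ranged from 7.99 to 2151 FPKM in WT libraries, with the highest sum in WT 3. B cell markers summed to 135 to 259 FPKM in WT iWAT and 292 to 387 FPKM in MCK-Musclin iWAT, T cell markers to 103 to 156 and 197 to 230 FPKM, and lymph node stroma markers to 157 to 339 and 360 to 579 FPKM. All markers of these lists, 6 for B cells, 7 for T cells and 6 for lymph node stroma, were higher in MCK-Musclin iWAT at an unadjusted p under 0.05, whereas the adipocyte marker sum was 16923 to 18169 FPKM in WT and 15181 to 16798 FPKM in MCK-Musclin mice. In bulk tissue, fewer cells of a type and less RNA per cell cannot be told apart.

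All 8 genes lie on the plus strand of GRCm38, as annotated by GENCODE. Ppara spans chr15:85734983-85802819, Ppard chr17:28232700-28301474 and Pparg chr6:115360951-115490399. Cebpa spans chr7:35119293-35121928, Cebpb, a gene of 1 exon, chr2:167688915-167690418 and Cebpd chr16:15887286-15891031. Rxra spans chr2:27676440-27762957 and Rxrg chr1:167598384-167639623. Exons of the C/EBP genes overlap exons on the minus strand, Gm45091 for Cebpa, Tmem189 for Cebpb and Spidr for Cebpd. Since the counting did not use strand, reads from the overlapping stretches could not be assigned with certainty. Tmem189 was at 10.5 to 16.7 FPKM and Spidr at 3.63 to 5.01 FPKM in iWAT, below Cebpb and Cebpd. In the survey, Tmem189 was above Cebpb in white adipose tissue (26.0 beside 25.8 FPKM) and brain (8.61 beside 4.80). Spidr was above Cebpd there in brown adipose tissue (2.43 beside 1.07 FPKM) and brain (0.863 beside 0.742). Both were lower in the other survey tissues. In BAT, Spidr was at 1.12 to 1.95 FPKM and Cebpd at 1.16 to 1.42 FPKM. The part of these overlaps in the C/EBP levels was not tested.

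Promoter sequence is shown for the genes at the top of the tissue pattern described next. Pparg and Cebpa were the PPAR and C/EBP genes with the highest FPKM in white adipose tissue, and Rxrg had its highest level in tibialis anterior muscle. Each line gives the 250 bases before an annotated start in RefSeq (GRCm38.p6), 5′ to 3′ on the plus strand. Capitals mark matches on either strand to the C/EBP core TTGCNNAA or to the nuclear receptor motif AGGTCA. The Pparg window, chr6:115421816-115422065, precedes the most downstream of 3 listed starts and lies within the gene between exons, in the region from which the adipocyte isoform Pparg2 is known to start. The Cebpa window is chr7:35119043-35119292, directly before the gene. The Rxrg window, chr1:167618015-167618264, precedes the more downstream of its 2 listed starts.
Pparg: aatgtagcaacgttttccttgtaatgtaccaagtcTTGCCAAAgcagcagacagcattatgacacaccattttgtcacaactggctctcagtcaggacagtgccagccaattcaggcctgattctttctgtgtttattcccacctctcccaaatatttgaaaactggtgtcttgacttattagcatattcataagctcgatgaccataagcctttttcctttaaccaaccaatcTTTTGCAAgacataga
Cebpa: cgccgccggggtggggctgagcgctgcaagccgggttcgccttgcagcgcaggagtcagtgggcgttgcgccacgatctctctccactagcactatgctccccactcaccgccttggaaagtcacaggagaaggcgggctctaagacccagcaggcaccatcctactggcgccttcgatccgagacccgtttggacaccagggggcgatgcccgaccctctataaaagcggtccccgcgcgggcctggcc
Rxrg: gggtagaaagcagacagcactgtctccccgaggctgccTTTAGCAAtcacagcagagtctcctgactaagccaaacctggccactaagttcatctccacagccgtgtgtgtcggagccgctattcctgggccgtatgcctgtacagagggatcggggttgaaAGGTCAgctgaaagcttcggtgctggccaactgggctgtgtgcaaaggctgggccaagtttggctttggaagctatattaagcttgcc
The Pparg window held 2 matches to the C/EBP core, at -215 and -16 bases from the start, and none to AGGTCA. The Rxrg window held 1 match to each, at -212 and -88. The Cebpa window held neither. The other listed windows differed from those shown: each of the other 2 for Pparg, not printed because they overlap exons, held 1 match to AGGTCA, at -28 and -9, and none to the C/EBP core, and the other Rxrg window held neither. Matches to the C/EBP core were present in 9.56% and to AGGTCA in 14.0% of all 32851 windows of this length, and no match shown overlapped another. The GC content was 40.8% for Pparg, 66.4% for Cebpa and 55.2% for Rxrg, beside a median of 52.4% over all windows. A match is a run of letters and not a measured site.

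The tissue survey asked where each gene was expressed, and it has 1 library per tissue, so that levels are described without a test or an error. Pparg, the master regulator of fat cell formation, was at 133 FPKM in white and 103 FPKM in brown adipose tissue. It was at 10.1 FPKM in small intestine, 5.64 in liver, 2.76 in heart, 1.24 in brain and 1.03 in tibialis anterior. Both adipose libraries thus stood far above the other 5. Cebpa, which drives the late steps of fat cell differentiation and also acts in hepatocytes, was at 179 FPKM in white adipose, 139 in brown adipose and 79.4 in liver. It was at 11.0 FPKM in small intestine, 2.24 in brain, 1.92 in heart and 0.598 in tibialis anterior. Pparg and Cebpa were at the 97.1 and 98.1 percentile of genes with an FPKM of at least 1 in white adipose tissue. Which of the adipose libraries ranked above the other depended on scaling, since after median-ratio scaling Pparg and Cebpa were highest in brown adipose tissue.

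Ppara, the receptor of hepatic fatty acid oxidation, separated the white from the brown library more than any other member did. It was at 42.0 FPKM in brown and 1.61 FPKM in white adipose tissue. Liver followed brown adipose tissue with 26.9 FPKM, small intestine had 6.89, heart 4.78, tibialis anterior 0.677 and brain 0.354. The range from brown adipose tissue to brain was 119-fold. Ppard, which is expressed in most tissues, varied less, apart from small intestine at 65.1 FPKM. The other tissues ranged from 2.21 FPKM in liver to 17.2 FPKM in white adipose tissue, with brain at 13.1, heart at 11.2, tibialis anterior at 10.3 and brown adipose at 9.81. Liver, where Ppara was second highest, was the tissue with the least Ppard.

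Cebpb, an early and hormone-responsive member, was at 118 FPKM in brown adipose, 51.8 in liver and 25.8 in white adipose tissue. It was at 19.1 FPKM in small intestine, 14.0 in tibialis anterior, 9.68 in heart and 4.80 in brain. Cebpd, its partner in early differentiation, was the lowest of the C/EBP genes in 5 of the 7 tissues on the FPKM scale. White adipose tissue had 6.85 FPKM of Cebpd and small intestine 5.65, and the other 5 tissues lay between 0.742 and 2.40. Brown adipose tissue, first for Cebpb, had 1.07 FPKM of Cebpd, beside 2.43 FPKM of the overlapping Spidr.

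Rxra, the broadly expressed partner of the PPARs, was at 58.9 FPKM in liver, 34.9 in white adipose, 24.2 in small intestine and 21.2 in tibialis anterior. It was at 8.00 FPKM in heart, 6.82 in brown adipose and 5.15 in brain. Rxrg was at 19.3 FPKM in tibialis anterior, 15.3 in heart and 11.98 in brain, then 6.22 in brown and 3.77 in white adipose tissue, 0.724 in liver and 0.218 in small intestine. Liver thus had the most Rxra and, after small intestine, the least Rxrg. Brain moved ahead of heart for Rxrg when values were rescaled to TPM, with tibialis anterior still highest. Of the 8 genes, 3 had their highest level in white adipose tissue, 2 in brown adipose tissue and 1 each in liver, small intestine and tibialis anterior, as the plot of the members over the 7 tissues shows.

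**Figure D1:**
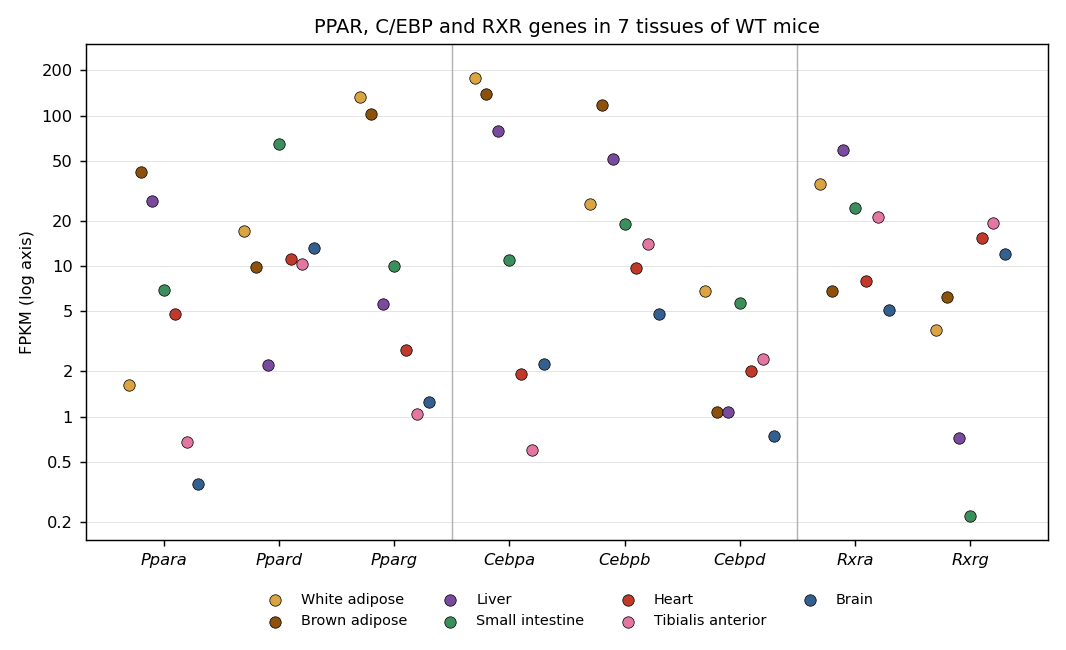
FPKM on a log axis of the 8 genes in 7 tissues of WT mice, 1 point per library and 1 library per tissue, with vertical lines between PPAR, C/EBP and RXR genes. Pparg and Cebpa have white and brown adipose tissue on top (133 and 103 FPKM, 179 and 139 FPKM), Ppara lies 119-fold apart between brown adipose tissue and brain, and Rxrg is highest in tibialis anterior at 19.3 FPKM.

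Within each family the FPKM values, which are per length, gave the makeup of the genes described here by tissue. The C/EBP sum is that of Cebpa, Cebpb and Cebpd, and Rxrb, Cebpg and other family members were left out. Pparg made up 87.6% of the summed PPAR FPKM in white and 66.5% in brown adipose tissue. Ppara made up 77.4% in liver and 27.2% in brown adipose tissue, against 1.07% in white adipose tissue. Ppard was the main PPAR in the other 4 tissues, with 89.2% in brain, 85.8% in tibialis anterior, 79.3% in small intestine and 59.7% in heart. Among the C/EBP genes, Cebpa took 84.6% in white adipose, 60.0% in liver and 53.8% in brown adipose tissue. Cebpb took the largest share in the other 4 tissues, from 53.3% in small intestine to 82.3% in tibialis anterior. Of the summed Rxra and Rxrg FPKM, Rxrg took 69.9% in brain, 65.7% in heart, 47.7% in both tibialis anterior and brown adipose tissue, 9.75% in white adipose tissue and 1.21% or less in liver and small intestine.

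**Figure D2:**
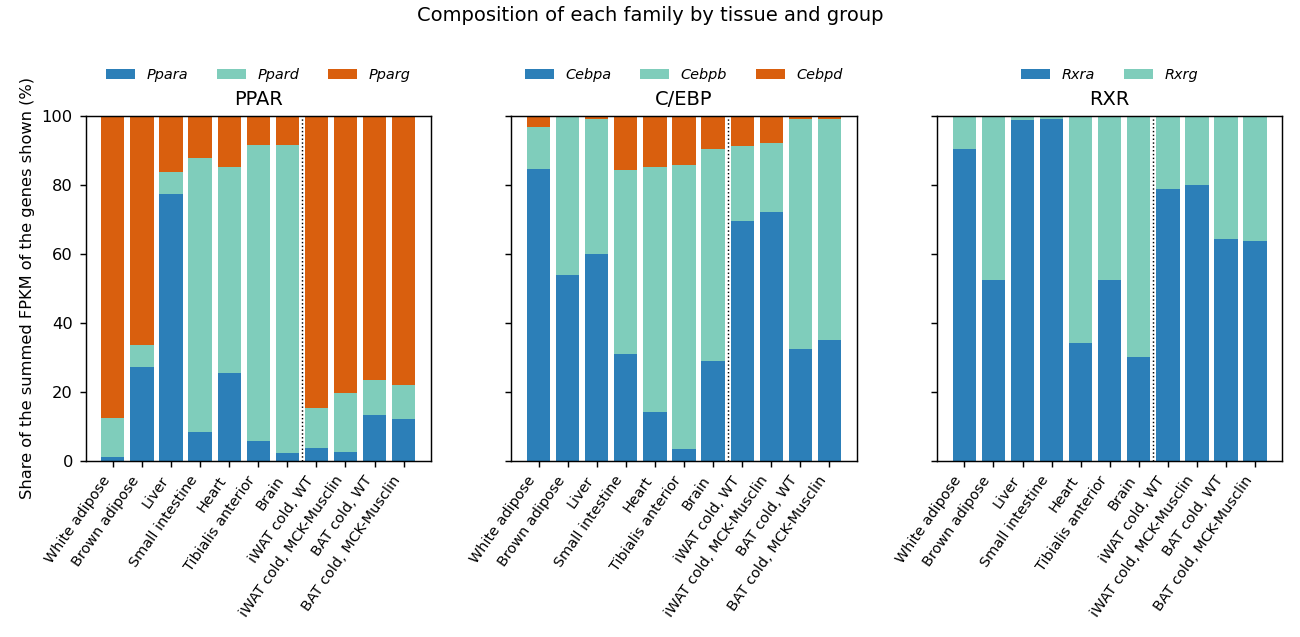
Stacked bars give the share (%) of each gene in the summed FPKM of the PPAR, C/EBP or RXR genes shown, for the 7 tissues (1 library each, left of the dotted line) and for the means of 3 libraries of the 4 cold-exposed groups. Pparg is the main PPAR in all adipose bars, and Cebpb takes 66.8% of the C/EBP sum in cold WT BAT but 21.8% in cold WT iWAT.

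Over the 7 tissues, the closest pair of members was Pparg and Cebpa, with a Pearson r of 0.88 on log2(FPKM + 1), followed by Ppara and Cebpb with 0.86. Rxra and Rxrg had an r of -0.64. These are descriptions over 7 libraries that differ in tissue and in the share of a few abundant genes. The 3 genes most like each member were sought among 10413 genes with at least 10 FPKM in a tissue. For Pparg they were A530020G20Rik, Lamtor4 and Cdkn2c (r from 0.986 to 0.991), and for Cebpa Tmed5, Cdo1 and Csad (0.977 to 0.992). A530020G20Rik was at 38.4 FPKM in white and 30.2 FPKM in brown adipose tissue and at 2.22 FPKM or less elsewhere. Cdo1, cysteine dioxygenase, was at 420 FPKM in white adipose, 265 in liver and 201 in brown adipose tissue. For Ppara the genes were Tmem14c, Aifm1 and Ppp1r3b (0.917 to 0.933), for Ppard Nomo1, Tnip1 and Nup62 (0.970 to 0.978), and for Cebpb Mrps7, Gcsh and Grpel1 (0.946 to 0.963). Cebpd was followed most closely by AI506816, Dnaaf5 and Etf1 (0.955 to 0.965) and Rxra by the histone genes H2bc8 and H2bc4 and by Cmbl (0.964 to 0.978). For Rxrg they were Coro6, Dnaja4 and Pkia (0.975 to 0.978). A high correlation does not mean a range of like size. Mrps7 was at 14.2 to 23.5 FPKM over the 7 tissues, beside 4.80 to 118 FPKM for Cebpb. Lamtor4 was at 5.49 to 14.6 FPKM, beside 1.03 to 133 FPKM for Pparg. With a pseudocount of 0.1, 16 of these 24 genes were named again.

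The comparison of MCK-Musclin with WT mice in cold-exposed iWAT asked whether transgenic Musclin went with a difference in these regulators. Of the 8 genes, 1 was lower at an unadjusted p under 0.05, Ppara, and none was higher. None had an adjusted p under 0.05 over all genes in limma, and 0 of 12197 genes did. Over all genes this count was 902 with libraries centred on the adipocyte markers, 86 without WT 1, 2 without MCK-Musclin 2 and 1 without MCK-Musclin 3. Over all genes tested, 3.44% were lower and 13.1% higher at an unadjusted p under 0.05, which is 16.5% in either direction. With median-ratio scaling this split moved from 420 lower and 1592 higher genes to 826 lower and 1038 higher, and with libraries centred on the adipocyte markers to 51 lower and 4182 higher. Fold changes are on the log2(FPKM + 1) scale, which understates the change of low genes.

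Ppara was at 2.59, 4.33 and 5.11 FPKM in WT libraries 1, 2 and 3 and at 3.29, 1.53 and 1.77 FPKM in MCK-Musclin libraries 1, 2 and 3. MCK-Musclin 2 and 3 lay below every WT library, while the library labelled MCK-Musclin 1 lay above WT 1, so the groups overlapped. The means were 4.01 ± 1.29 and 2.20 ± 0.955 FPKM (SD, n = 3 each). The log2 fold change was -0.65 with an SE of 0.26 (limma, unadjusted p = 0.0408, adjusted p = 0.280). Leaving out WT 2, WT 3, MCK-Musclin 2 or MCK-Musclin 3 took the unadjusted p in limma to between 0.109 and 0.130. Without the library labelled MCK-Musclin 1 the log2 fold change was -0.88 (unadjusted p = 0.00969), and without WT 1 it was also -0.88. Centred on the adipocyte markers it was -0.47 (unadjusted p = 0.115). The thermogenic adipocyte markers, which include the PPARα coactivator gene Ppargc1a, summed to 577, 907 and 1073 FPKM in WT and to 648, 226 and 118 FPKM in MCK-Musclin libraries 1, 2 and 3. For Ppara and for this sum alike, WT 3 was the highest library, followed by WT 2, MCK-Musclin 1 and WT 1, and 6 of the 8 markers were lower at an unadjusted p under 0.05. The part of beige cells in the Ppara difference was not tested.

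Pparg was at 105, 73.7 and 98.5 FPKM in WT and at 63.2, 84.5 and 57.2 FPKM in MCK-Musclin iWAT. The libraries labelled MCK-Musclin 1 and 3 lay below every WT library, and MCK-Musclin 2 lay above WT 2. The means were 92.4 ± 16.6 and 68.3 ± 14.3 FPKM (SD, n = 3 each), and the log2 difference of -0.43 (SE 0.19) did not pass the test (limma, unadjusted p = 0.0511, adjusted p = 0.304). Its 95% confidence interval ran from -0.87 to 0.0027. Without WT 2 the log2 difference was -0.59 (limma, unadjusted p = 0.0158) and without MCK-Musclin 2 it was -0.60 (unadjusted p = 0.0120). Without the library labelled MCK-Musclin 1 it was -0.39 (unadjusted p = 0.128). Pparg also passed the unadjusted threshold after median-ratio scaling, at -0.51 (limma, unadjusted p = 0.0256), while centring each library on the adipocyte markers gave -0.25 (unadjusted p = 0.254).

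Ppard was at 14.0, 11.1 and 12.1 FPKM in WT and at 13.5, 12.5 and 16.0 FPKM in MCK-Musclin iWAT. The ranges overlapped, and the log2 difference was 0.16 (95% confidence interval -0.15 to 0.46). As a share of the PPAR sum within each library, which does not depend on scaling, Ppard took 10.5 to 12.4% in WT and 12.6 to 21.3% in MCK-Musclin libraries, so these ranges did not overlap. The mean shares were 11.5 ± 0.978% and 16.9 ± 4.34% (SD, n = 3 each, exact two-sided permutation p = 0.1, the smallest that 3 against 3 allows). No other member had shares that separated the groups in iWAT, and none did in BAT. The libraries with the highest Ppard shares, MCK-Musclin 3 and MCK-Musclin 1, were also those with the lowest Pparg in iWAT. Pparg took 84.7 ± 1.87% and 80.4 ± 4.88% (exact p = 0.3) and Ppara 3.80 ± 1.47% and 2.68 ± 1.31% (exact p = 0.3). Pparg was the main PPAR gene in each of the 6 iWAT libraries, with at least 76.3% of the sum.

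The C/EBP genes differed by less than the spread between libraries in iWAT. Cebpa was at 108, 127 and 105 FPKM in WT and at 108, 125 and 119 FPKM in MCK-Musclin libraries, with nearly the same range. Its log2 difference was 0.06 (95% confidence interval -0.21 to 0.32). Centred on the adipocyte markers it was 0.24 (limma, unadjusted p = 0.0484), and after median-ratio scaling -0.02 (unadjusted p = 0.828). Cebpb was at 23.8, 44.6 and 40.3 FPKM in WT and at 36.3, 25.1 and 36.3 FPKM in MCK-Musclin libraries, and Cebpd at 11.6, 15.2 and 16.2 FPKM and at 13.3, 10.3 and 15.5 FPKM. For both genes WT 1 was lower than the other WT libraries and MCK-Musclin 2 lower than the other MCK-Musclin libraries. The intervals of the log2 difference were wide, -0.71 to 0.47 for Cebpb and -0.54 to 0.28 for Cebpd. Cebpa made up 69.4 ± 5.31% of the C/EBP sum in WT and 72.0 ± 5.11% in MCK-Musclin iWAT (SD, n = 3 each, exact p = 0.5).

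Rxra was at 25.2, 27.9 and 24.5 FPKM in WT and at 21.0, 22.4 and 28.3 FPKM in MCK-Musclin iWAT, with a log2 difference of -0.12 (95% confidence interval -0.42 to 0.19). Rxrg was at 6.38, 6.35 and 8.16 FPKM in WT and at 6.08, 5.81 and 5.97 FPKM in MCK-Musclin libraries. It was the 1 member of 8 whose groups did not overlap, as was the case for 5.44% of all genes tested in the lower and 17.9% in the higher direction. Its log2 difference of -0.19 (SE 0.12) did not pass the test (limma, unadjusted p = 0.158, adjusted p = 0.469). WT 3, the library with the highest Rxrg, was the one whose muscle markers summed to 2151 FPKM, and tibialis anterior had the most Rxrg of the 7 tissues. Without WT 3 the log2 difference was -0.08 (limma, unadjusted p = 0.477), and the part of muscle in it was not tested. Centred on the adipocyte markers it was -0.00097 (unadjusted p = 0.995).

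**Figure D3:**
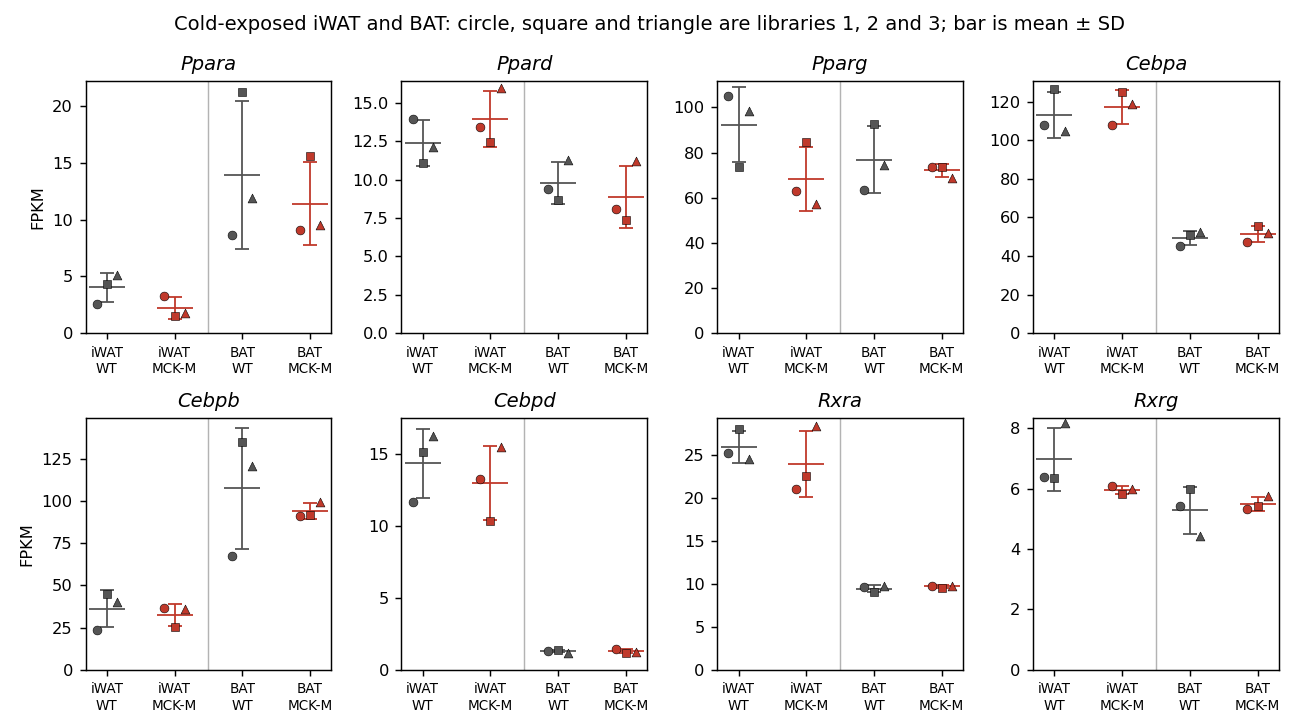
FPKM of each gene in the 12 cold-exposed adipose libraries, with libraries 1, 2 and 3 of a group as circle, square and triangle, WT in grey and MCK-Musclin (MCK-M) in red, and bars for the mean ± SD of 3 libraries. Ppara in iWAT has means of 4.01 and 2.20 FPKM with overlapping libraries, Rxrg in iWAT does not overlap, and WT 1 is the lowest BAT library for Ppara, Pparg, Cebpa and Cebpb.

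In BAT, 0 of the 8 genes passed an unadjusted p under 0.05 in limma, beside 4.89% of all 10893 genes tested, and none passed after adjustment, at which 0.00918% of genes, Ostn alone, did. The groups overlapped for all 8 members, whereas 5.63% of all genes were lower and 4.38% higher without overlap, 10% in all. Ppara was at 8.64, 21.2 and 11.9 FPKM in WT and at 9.04, 15.6 and 9.53 FPKM in MCK-Musclin BAT. Pparg was at 63.5, 92.6 and 74.5 FPKM in WT and at 73.7, 73.7 and 68.8 FPKM in MCK-Musclin BAT. For both genes the MCK-Musclin libraries lay within the WT range. Cebpb was at 67.2, 135 and 121 FPKM in WT and at 91.4, 91.7 and 99.5 FPKM in MCK-Musclin BAT, again within the WT range. Its coefficient of variation was 33.3% in WT and 4.86% in MCK-Musclin mice, and that of Pparg was 19.1% and 3.97%. WT 1 was the lowest BAT library for Ppara, Pparg, Cebpa and Cebpb, and WT 2 the highest for Ppara, Pparg and Cebpb. Without WT 1, Cebpb had a log2 difference of -0.44 (limma, unadjusted p = 0.00415), against -0.13 with all libraries (unadjusted p = 0.599).

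Cebpa was at 45.4, 50.9 and 52.3 FPKM in WT and at 47.3, 55.6 and 51.8 FPKM in MCK-Musclin BAT, with a 95% confidence interval of the log2 difference from -0.18 to 0.29. Ppard was at 9.39, 8.70 and 11.3 FPKM and at 8.11, 7.36 and 11.2 FPKM. In both groups library 3 had the most Ppard. Rxra had the narrowest spread, at 8.98 to 9.67 FPKM in WT and 9.48 to 9.78 FPKM in MCK-Musclin BAT, and an interval from -0.18 to 0.25. Rxrg ranged from 4.42 to 5.97 FPKM and from 5.31 to 5.76 FPKM, and Cebpd from 1.19 to 1.38 FPKM and from 1.16 to 1.42 FPKM. The intervals of the log2 difference were widest for Ppara, -0.97 to 0.53, and Cebpb, -0.69 to 0.43, so that sizeable differences in these genes were not detectable with 3 libraries a group. Skeletal muscle markers summed to 269 to 427 FPKM in WT and 439 to 1044 FPKM in MCK-Musclin BAT, and 5 of 7 were higher at an unadjusted p under 0.05, while no member passed the test in this tissue.

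**Figure D4:**
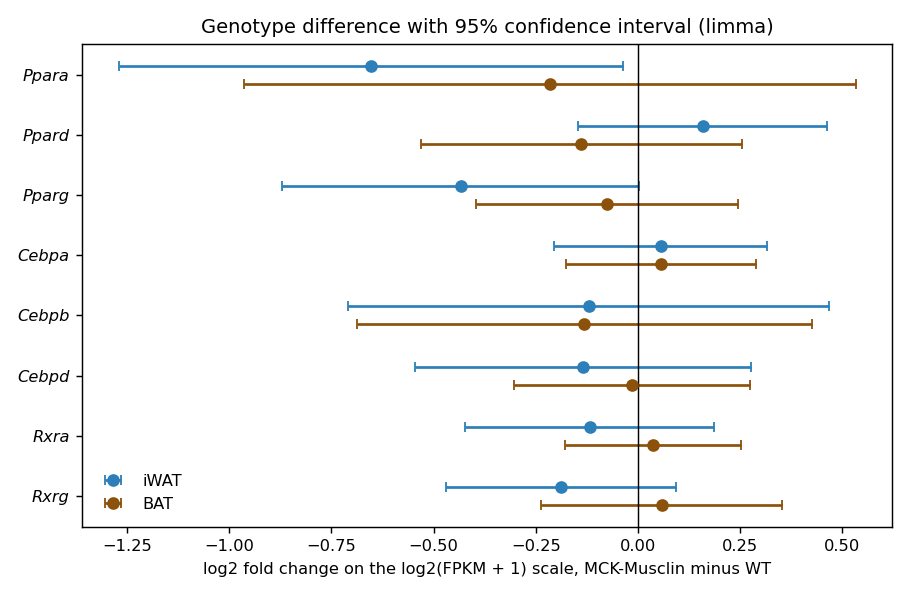
Points give the log2 fold change of each gene, MCK-Musclin minus WT on the log2(FPKM + 1) scale, in iWAT (blue) and BAT (brown) with the 95% confidence interval from limma, 3 libraries per group. The interval of Ppara in iWAT ends at -0.04 and that of Pparg in iWAT at 0.0027, and all 8 intervals of BAT include 0.

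Whether the genotype difference itself differed between depots was tested with an interaction term over the 12 libraries. None of the 8 genes had a depot difference at an unadjusted p under 0.05 in limma, beside 10.1% of 9757 genes, and none of these genes passed after adjustment. The log2 difference in iWAT minus that in BAT was -0.44 for Ppara (95% confidence interval -1.44 to 0.57, unadjusted p = 0.361) and -0.36 for Pparg (-0.90 to 0.19, unadjusted p = 0.177). The lower Ppara in iWAT was therefore not shown to be particular to that depot. Without MCK-Musclin 2 of iWAT the depot difference of Pparg was -0.52 (limma, unadjusted p = 0.0482), and without MCK-Musclin 3 of BAT that of Ppard was 0.46 (unadjusted p = 0.0396).

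The makeup of the families in cold-exposed fat is given beside that of the tissue survey with no test, since the tables are separate. In WT mice after cold, Ppara was at 13.9 ± 6.53 FPKM in BAT and 4.01 ± 1.29 FPKM in iWAT (SD, n = 3 each), and the survey had 42.0 FPKM in brown and 1.61 FPKM in white adipose tissue. Cebpa was at 49.5 ± 3.63 FPKM in BAT and 113 ± 11.9 FPKM in iWAT, and at 139 and 179 FPKM in the survey. Cebpd was at 1.30 ± 0.0976 FPKM in BAT and 14.3 ± 2.40 FPKM in iWAT, and Rxra at 9.41 ± 0.377 and 25.9 ± 1.84 FPKM. Both genes also had less in brown than in white adipose tissue in the survey, at 1.07 and 6.85 FPKM for Cebpd and 6.82 and 34.9 FPKM for Rxra. Cebpb had more in BAT, at 108 ± 35.8 FPKM beside 36.3 ± 11.0 FPKM in iWAT, and made up 66.8 ± 6.92% of the C/EBP sum in WT BAT and 64.1 ± 2.00% in MCK-Musclin BAT (exact p = 0.5). Pparg made up 76.6 ± 1.17% of the PPAR sum in WT and 78.1 ± 2.68% in MCK-Musclin BAT (exact p = 0.6). The 10 most abundant genes of a library took 48.4 to 51.3% of its summed FPKM in BAT and 11.9 to 13.0% in iWAT. RNA isolation also went with depot, with a kit for white adipose tissue and TRIzol for BAT. The part of either in the levels set side by side was not tested.

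The genes around these regulators were read from lists fixed with earlier results of these data known, so their counts are descriptions. Of 28 genes listed as PPARα and PPARδ targets of fatty acid oxidation, 23 were tested in iWAT, of which 14 were lower and 0 higher at an unadjusted p under 0.05, beside 3.44% lower and 13.1% higher of all genes tested. Their median log2 difference was -0.50, beside 0.06 over all genes. In the same libraries 6 of 8 thermogenic adipocyte markers were lower, with a median of -1.37. All 6 markers of B cells, 7 of T cells and 6 of lymph node stroma were higher. The 7 skeletal muscle markers had a median of -2.05, with 0 called, and their sum was highest in WT 3, at 2151 FPKM. The part of these cell types in the counts of the target lists was not tested. Hadhb, a subunit of the mitochondrial trifunctional protein, was at 44.6, 46.1 and 53.9 FPKM in WT and at 39.5, 27.6 and 22.4 FPKM in MCK-Musclin iWAT (log2 -0.71, SE 0.20, adjusted p = 0.173 in limma). Cpt2, of the carnitine shuttle, had means of 89.9 ± 6.77 and 68.3 ± 8.71 FPKM (SD, n = 3 each). Both were named because they were called and their groups did not overlap. Of all genes tested in iWAT, 5.44% were lower without overlap. The count of 14 became 7 without WT 3, MCK-Musclin 2 or MCK-Musclin 3, 9 without WT 2, and 16 without the library labelled MCK-Musclin 1. Centred on the adipocyte markers, which moves the median of all genes to 0.25, it was 3.

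Of 28 PPARγ targets in adipocytes, all tested, 8 were lower and 1 was higher in iWAT at an unadjusted p under 0.05, with a median log2 difference of -0.25. The shares over all genes were again 3.44% and 13.1%, so the count of 1 higher was no more than the background. Gpd1, which makes the glycerol backbone of triglyceride, was at 876, 691 and 748 FPKM in WT and at 643, 375 and 412 FPKM in MCK-Musclin iWAT (log2 -0.73, SE 0.21, adjusted p = 0.184 in limma). Aqp7, the glycerol channel, had means of 9.85 ± 0.556 and 7.06 ± 0.854 FPKM, and Retsat, a retinol saturase, 24.2 ± 1.84 and 18.6 ± 2.47 FPKM (SD, n = 3 each). No value of the MCK-Musclin group reached the WT range for these 3 genes, which the rule that named them required. The 1 higher target, Angptl4, an inhibitor of lipoprotein lipase, is named after its value was seen (log2 0.95, unadjusted p = 0.0462 in limma). Without MCK-Musclin 3 the count of 8 was 3, without WT 2 it was 4 and without WT 1 it was 5. Centred on the adipocyte markers it was 0, and 7 of those 8 markers are on this target list.

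The counts of the other lists stand against the same 3.44% lower and 13.1% higher of all genes in iWAT. Among 11 coactivators, 2 were lower in iWAT and 0 higher. Lpin1, which encodes a phosphatidate phosphatase that also acts with PPARα and PGC-1α, was at 110, 107 and 106 FPKM in WT and at 68.8, 65.4 and 74.1 FPKM in MCK-Musclin iWAT. Its log2 fold change was -0.63 (SE 0.09, unadjusted p = 0.000169, adjusted p = 0.143 in limma). The rule that named Lpin1 and the other genes of these lists required that they were called and that their groups did not overlap. Ppargc1a, which encodes PGC-1α, was at 7.16, 7.23 and 6.51 FPKM in WT and at 6.34, 2.96 and 2.01 FPKM in MCK-Musclin iWAT (log2 -0.84, SE 0.30, adjusted p = 0.233). The library labelled MCK-Musclin 1 lay close to the WT libraries. Of 17 upstream activators tested, 4 were lower, among them Ebf3 (14.8 ± 1.12 and 11.7 ± 0.493 FPKM) and Klf15 (24.8 ± 2.51 and 19.6 ± 0.745 FPKM, SD, n = 3 each), and 1 was higher, Id2 (9.21 ± 1.55 and 11.95 ± 1.48 FPKM), a share below that of all genes. Of 8 inhibitors of adipogenesis, 5 corepressors and 4 other family members tested, 0 passed in either direction. Of 10 other RXR partners, 1 was higher, Rara, a retinoic acid receptor gene, at 12.8 ± 0.377 and 16.8 ± 1.72 FPKM (SD, n = 3 each), which is likewise below the share of all genes. Of 7 C/EBP targets 1 was lower, Insr, the insulin receptor gene, at 18.3 ± 2.46 and 14.9 ± 0.217 FPKM.

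In BAT, 2.71% of all genes tested were lower and 2.18% higher at an unadjusted p under 0.05, which is 295 and 238 genes, or 94 and 324 with libraries centred on the adipocyte markers. Of 22 fatty acid oxidation targets tested, 0 were lower and 1 was higher in limma, Ucp3, a mitochondrial carrier gene, at 45.6 ± 2.48 FPKM in WT and 52.8 ± 1.55 FPKM in MCK-Musclin mice (SD, n = 3 each). Of 28 PPARγ targets, 2 were lower and 0 higher, among them the lipid droplet gene Cidec, at 596, 609 and 579 FPKM in WT and at 474, 492 and 526 FPKM in MCK-Musclin BAT (log2 -0.26, adjusted p = 0.929 in limma). Haptoglobin (Hp), a C/EBP target, was at 59.6, 59.5 and 59.2 FPKM in WT and at 87.8, 83.2 and 70.8 FPKM in MCK-Musclin BAT (log2 0.43, SE 0.10, adjusted p = 0.929). It was the 1 of 6 C/EBP targets tested that was higher, and none was lower. Tcf7l2, a Wnt effector on the list of inhibitors, was at 3.50 ± 0.434 and 2.66 ± 0.0913 FPKM (SD, n = 3 each). It was the 1 of 6 inhibitors tested that was lower (limma, unadjusted p = 0.0419, adjusted p = 0.968), and none was higher. Of 15 upstream activators tested, 1 was lower and 0 were higher. Of 11 coactivators, 5 corepressors, 9 other RXR partners and 4 other family members tested, 0 passed in either direction. The medians of these lists in BAT lay between -0.06 and -0.03 for the 3 target lists, beside -0.01 over all genes. The plot of list genes shows the iWAT and BAT values side by side, which were not compared by a test.

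**Figure D5:**
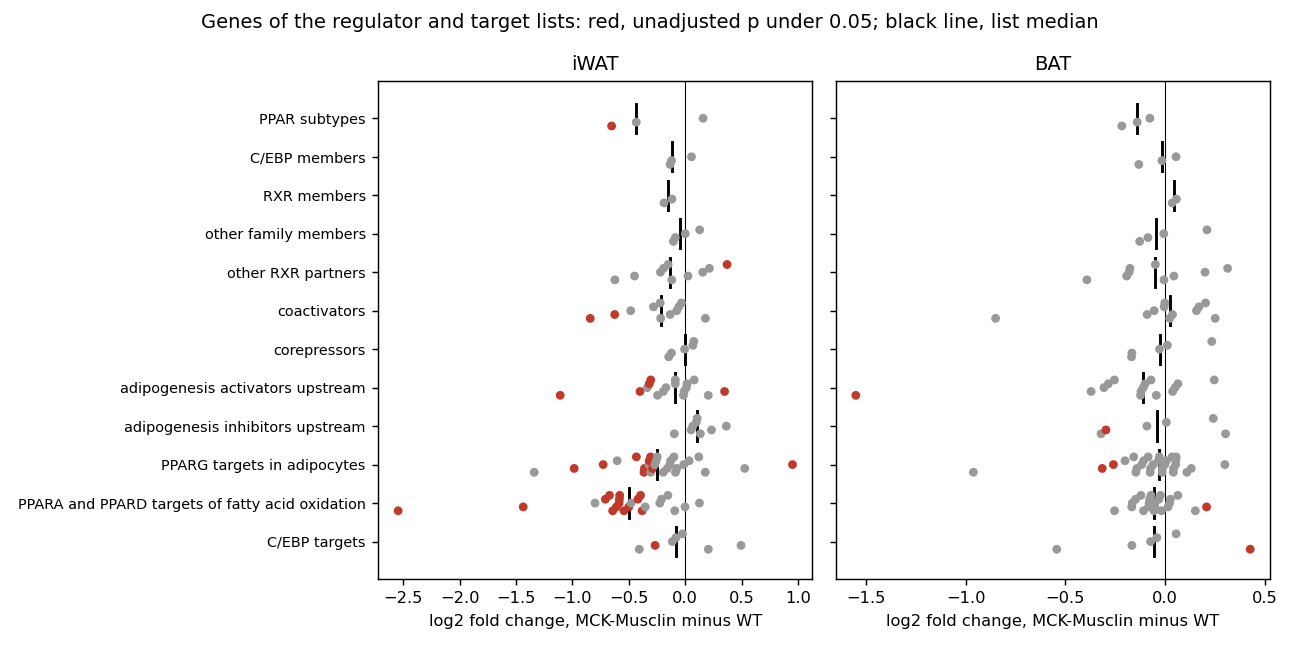
Each point is the log2 fold change of 1 gene, MCK-Musclin minus WT, in iWAT (left) and BAT (right), by list, with an unadjusted p under 0.05 in red and the list median as a black line; the axes differ in range. In iWAT 14 of 23 fatty acid oxidation targets are red and lower, and in BAT 0 of 22 are.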

How the data were processed

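RNA-Seq of 19 mouse libraries was analysed from FPKM tables. The authors filtered reads with fastp and Bowtie2, aligned them without strand to mm10 (GRCm38) with HISAT2 (version 2.1.0 in the submitters' processing notes) and, per the study's methods, calculated the FPKM values they deposited with StringTie. The submitters' notes also name Cuffdiff, without its role. White adipose RNA was isolated with a kit and RNA of the other tissues with TRIzol. The deposited iWAT table lists 13756 genes, and how they were selected is not given in the sources used here. Its other columns hold the authors' DESeq2 comparison (fold change, p-value, FDR and mean normalized signal per group), and none was used. A gene was repeated on 287 lines of each of the other tables, and each gene was used once. The number of per-library value columns left out was 0. Read depth is not given in these tables, so no counting interval could be computed.

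The members and gene lists were chosen with earlier results of these data known. Within iWAT and within BAT, MCK-Musclin and WT mice were compared with limma 3.58.1 under R 4.3.3. Its lmFit and trended eBayes steps were run on log2(FPKM + 1) of genes whose mean over both groups was 1 FPKM or more. Genes were called at an unadjusted p under 0.05 with no limit on the fold change, whereas the study also set a minimum fold change, and Benjamini-Hochberg adjusted p-values over all genes tested are printed beside. A difference between depots was the interaction term over the 12 libraries. Family shares were compared with exact two-sided permutation tests. The steps were tested on simulated data. In the limma simulation genes varied independently, so it does not bear on shifts that genes of a real library share. All 8 members were named in every library. The 3 genes with the highest correlation to each were named, and from each list at most 3 genes per direction that were called and whose groups did not overlap. One gene that this rule names is not reported here. Alternatives were other pseudocounts (0.1 and 0.01), filters (none, or a mean of at least 5), scalings (TPM, median-ratio, quantile, adipocyte markers), eBayes settings, a replicate block and leaving out each library. Those on the target lists were chosen after seeing the data. Python 3.11.15, numpy 2.4.6, pandas 2.3.3, scipy 1.17.1 and matplotlib 3.10.9 were also used. Positions are from GENCODE (GRCm38) and promoter sequences from RefSeq (GRCm38.p6), which had 11 windows for 7 of the 8 members.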

Additional observations from a re-analysis of the deposited data

How the results depend on the processing

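The 1 iWAT member called at an unadjusted p under 0.05 in limma became 0 with a mean FPKM of at least 5, since Ppara was then not tested. The count became 2 (Ppara and Pparg) with TPM, median-ratio scaling, quantile normalization or robust eBayes. Centred on the adipocyte markers it stayed at 1, but the called member was Cebpa, which was higher (0.24, unadjusted p = 0.0484 in limma). Ppara was then not called (-0.47, unadjusted p = 0.115 in limma). Leaving out 1 library gave 0 to 1 called members in iWAT, 0 to 1 in BAT and 0 to 1 for the depot difference, where all libraries gave 1, 0 and 0. The member lost or gained was Ppara or Pparg in iWAT, Cebpb in BAT without WT 1, and Pparg or Ppard for the depot difference. Whether replicate numbers pair the samples is not stated, and 3 libraries a group cannot settle it. Deviations of same-numbered WT and MCK-Musclin libraries had correlations of 0.235, 0.061 and 0.107 in iWAT and -0.095, -0.0046 and 0.0094 in BAT. Those of different-numbered libraries ran from -0.180 to 0.070 in iWAT and from -0.084 to 0.079 in BAT. With the replicate number as a block, 0 iWAT members were called (Ppara -0.65, unadjusted p = 0.0758), and 1956 genes in iWAT and 523 in BAT were called in place of 2012 and 533. Directions turned for differences that had not passed the test. Centred on the adipocyte markers, the log2 difference was 0.066 for Cebpb, 0.053 for Cebpd and 0.069 for Rxra in iWAT, 0.054 for Cebpd in BAT and 0.12 for the depot difference of Cebpa. Median-ratio scaling gave -0.024 for Cebpa in iWAT, and TPM gave 0.00062 for Cebpd in BAT. The depot difference of Cebpb was -0.071 with TPM, -0.072 with median-ratio scaling and -0.075 with quantile normalization. When 1 library was left out, the log2 difference ranged in iWAT from -0.39 to 0.050 for Cebpb and from -0.27 to 0.011 for Cebpd. In BAT it ranged from -0.49 to 0.12 for Ppara, -0.20 to 0.066 for Pparg, -0.0041 to 0.11 for Cebpa, -0.44 to 0.063 for Cebpb, -0.058 to 0.023 for Cebpd and -0.044 to 0.14 for Rxrg. The depot difference ranged from -0.059 to 0.084 for Cebpa, -0.26 to 0.32 for Cebpb and -0.25 to 0.025 for Cebpd. Differences in family share ranged in iWAT from -0.27 to 5.61 percentage points for Cebpa and -4.48 to 0.30 for Cebpb, and in BAT from -3.06 to 0.88 for Ppara, -1.87 to 0.65 for Ppard, -0.050 to 2.40 for Pparg and -0.079 to 0.16 for Cebpd. Ppara, Pparg and Ppard in iWAT kept their direction under every alternative that gave a value, and so did Rxrg, although it was -0.00097 centred on the adipocyte markers, against -0.19 without centring. The causes of these changes were not tested beyond the fewer libraries or genes named. The TPM and median-ratio scalings kept the highest tissue of 8 and 6 of the 8 members. Library depth is unknown in iWAT and the tissue survey, and 3 libraries a group limit what could be detected.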
